A study of Homo sapiens with 9 samples.

Results

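The metallothionein genes were followed in MDA-MB-231, a triple-negative human breast cancer cell line, after treatment with JQ1, a small molecule that blocks BET bromodomains, the modules by which proteins of the BET family hold on to acetylated chromatin. The family was taken as the 9 genes MT1B, MT1E, MT1F, MT1G, MT1H, MT1L, MT1M, MT1X and MT2A, found by symbol in the platform's gene table, and all 9 were among the 14884 genes tested. Each of them was read by 1 row of the Affymetrix Human Gene 2.0 ST array. The groups were 3 control arrays with no agent at time 0, 3 arrays of cells given 500 nM JQ1 for 12 h and 3 arrays of cells given 500 nM JQ1 for 24 h, all of the same cell line and all from total RNA. The labels give the controls no vehicle and no matched time, so solvent, hours in culture and JQ1 itself cannot be told apart as sources of a difference. They do not say whether replicates were separate cultures, so each p-value covers only how far these samples spread, and that spread may be technical.

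Metallothioneins are small, cysteine-rich proteins that bind zinc and copper in thiolate clusters and also take up cadmium and other toxic metals. Their transcription is switched on by zinc or cadmium through the zinc finger factor MTF1, which binds short metal response elements in their promoters, and several of them also respond to glucocorticoid and to oxidants. In humans most of the family lies in a single cluster on the long arm of chromosome 16, where MT1 genes arose by duplication and remain very alike in sequence. For that reason an array row may also take up signal from a close relative, and the value of any 1 member is uncertain to that extent.

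RefSeq promoter sequences (GRCh38.p14) were at hand for 4 members, MT1B, MT1H, MT1X and MT2A. Those of 3 are shown, since they place a gene that stayed dim (MT1H) beside the genes that rose with JQ1 (MT1X and MT2A). Each line gives the 250 bases before the annotated start on the plus strand, 5′ to 3′, with matches on either strand to the metal response element core, TGCACNC or TGCGCNC, in capitals. MT1H is at chr16:56669564-56669813, MT1X at chr16:56682220-56682469 and MT2A at chr16:56608334-56608583.
MT1H: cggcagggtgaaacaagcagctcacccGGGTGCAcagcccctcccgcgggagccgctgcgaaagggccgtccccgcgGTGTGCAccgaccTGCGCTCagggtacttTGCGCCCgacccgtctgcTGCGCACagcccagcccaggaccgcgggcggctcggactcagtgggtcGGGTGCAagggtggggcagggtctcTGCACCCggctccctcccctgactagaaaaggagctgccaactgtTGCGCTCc
MT1X: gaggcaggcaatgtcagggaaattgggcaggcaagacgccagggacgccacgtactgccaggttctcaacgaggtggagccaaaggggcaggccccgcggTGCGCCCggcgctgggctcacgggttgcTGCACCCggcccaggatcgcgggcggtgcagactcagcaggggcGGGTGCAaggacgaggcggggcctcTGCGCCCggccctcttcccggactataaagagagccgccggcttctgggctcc
MT2A: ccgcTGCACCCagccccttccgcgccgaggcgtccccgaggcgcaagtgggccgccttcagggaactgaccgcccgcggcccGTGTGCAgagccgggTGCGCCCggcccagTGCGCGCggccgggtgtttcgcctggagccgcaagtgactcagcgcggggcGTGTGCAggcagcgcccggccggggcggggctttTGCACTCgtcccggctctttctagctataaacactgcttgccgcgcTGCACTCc

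In the window of 300 bases that runs from 250 before to 50 after the start, the core matched 3 times in MT1B, 8 times in MT1H, 4 times in MT1X and 8 times in MT2A, of which 1 in MT2A lay after the start. Across 35116 RefSeq promoters of this length, 29.6% held at least 1 match, 2.3% at least 3, 0.601% at least 4 and 0.0199% at least 8. MT1B, MT1H and MT1X each carried a core at positions -53 to -47 from the start, and MT2A carried one at -54 to -48. A TATA box (TATAAA, either strand) was found once in MT1B, MT1X and MT2A and not in this window of MT1H, against 11.5% of promoters. The GC box (GGGCGG, either strand) matched once in MT1B and MT1H and 2 times in MT1X and MT2A, against 45.0% of promoters with at least 1. The antioxidant element core (TGACNNNGC, either strand) matched once in MT1B, MT1X and MT2A and had no match in MT1H, against 13.3% of promoters. The E-box (CACGTG) matched once in MT1H and in no other of these 4, against 7.26% of promoters. MT1H and MT2A thus held the same number of metal cores in the whole window, and 8 and 7 before the start. MT2A was called with JQ1 and MT1H, a dim row with a mean of 3.53, was not. Whether the number of cores bears on the change with JQ1 was not tested. These matches describe letters and are not shown to be sites bound in these cells.

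The arrays as a whole had medians of 4.92 to 4.96 on the log2 scale. Control 3 stood apart from its group, with a correlation over all rows of 0.983 to each of the other controls. Those correlated at 0.995 with each other. Control 3 was closer to JQ1 12 h replicates 2 and 3 (0.989 and 0.987) and JQ1 24 h replicate 2 (0.986) than to the other controls. With the remaining JQ1 arrays it correlated at 0.981 to 0.983. BRD2 and HEXIM1, which rise when BET proteins are displaced, were called higher at both JQ1 times. Of 7 mesenchymal genes 6 were measured, with means of 7.06 to 12.25, all above the median row. Of 9 luminal and receptor genes 7 were measured, with means of 4.09 to 10.22, and all but PGR lay above the median row. ESR1 (5.04) and FOXA1 (4.95) lay close to it, above 30.6% and 29.1% of the genes tested, and KRT18 was the highest. The median row is taken over all rows, most of them unnamed here, so a place above it does not show expression. Leukocyte and fibroblast genes were measured for 2 of 5 each, CD14, LYZ, DCN and LUM, and all 4 lay between 2.99 and 4.31, below the median row.

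Of the 9 members, MT1E had the largest differences from control, and since its rise was known when the family was chosen it is described without a test. Of the other 8 members, 2 (MT1X and MT2A) were called higher after 12 h of JQ1 than in controls at an adjusted p under 0.05 (limma, Benjamini-Hochberg over all genes), 0 were lower and 6 were not called. MT1X and MT2A were also the 2 called higher at 24 h, again with 0 lower and 6 not called. Over all genes tested, 3.54% were called higher and 4.39% lower at 12 h, and 5.17% higher and 6.34% lower at 24 h. These shares are a background, and the members' counts are not read against them. The median member differed from control by 0.26 at 12 h and 0.20 at 24 h on the log2 scale, against 0.01 and 0.01 for all genes. This median includes MT1E and, like the counts, is not read against all genes. Without control 3, MT1L was called higher beside MT1X and MT2A at both times. That fit called 2986 of all genes at 12 h, against 1181 with all arrays. The added call is therefore not read as a trait of the family. In bulk RNA, more cells with a transcript and more of it per cell cannot be told apart. The plot of member values by array shows every JQ1 array above every control for MT1E, MT1X and MT2A.

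**Figure D1:**
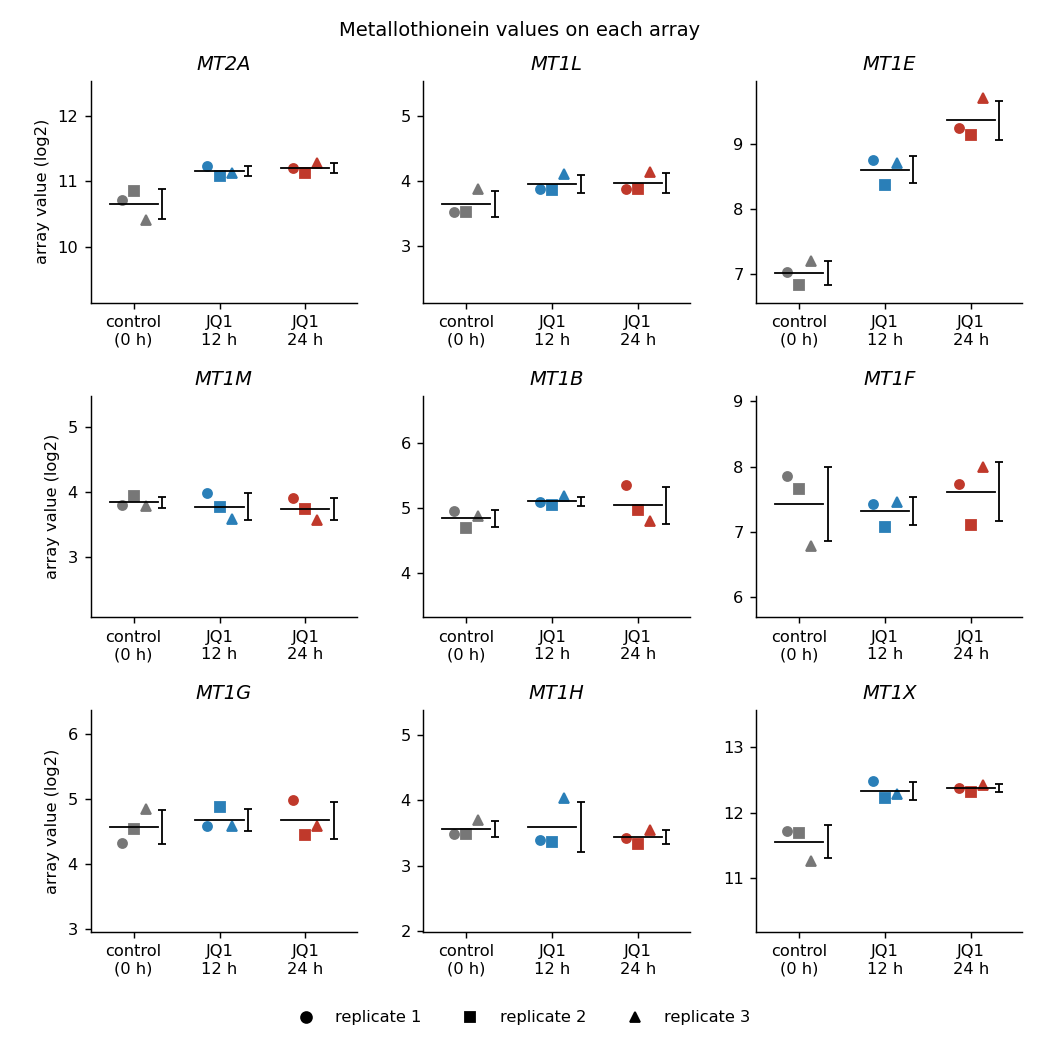
Log2 array value of each metallothionein gene on every array, with control, JQ1 12 h and JQ1 24 h along the x axis of each panel, points for arrays and bars for group means. MT1E lies between 6.83 and 7.20 in controls, between 8.37 and 8.75 at 12 h and between 9.14 and 9.70 at 24 h, whereas the groups of MT1F, MT1G, MT1H and MT1M overlap.

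MT1E, a metal-binding isoform of the MT1 group, gave the largest difference of the family. Its log2 values were 7.03, 6.83 and 7.20 in controls, 8.75, 8.37 and 8.70 at 12 h of JQ1 and 9.25, 9.14 and 9.70 at 24 h. The 3 groups did not overlap, with all controls lowest and all 24 h arrays highest. The difference from control was 1.59 at 12 h (SE 0.17, 95% interval 1.21 to 1.97, 3.01-fold) and 2.34 at 24 h (SE 0.17, 1.97 to 2.72, 5.08-fold), given as a description without a test. By size of increase MT1E ranked number 6 of 14884 genes at 12 h and number 4 at 24 h. Leaving out any 1 array gave differences of 1.5 to 1.71 at 12 h and of 2.17 to 2.46 at 24 h.

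Between the JQ1 times, MT1E averaged 9.36 ± 0.30 at 24 h and 8.61 ± 0.20 at 12 h (SD, n = 3 each). The difference of 0.76 (SE 0.17, 95% interval 0.38 to 1.13, 1.69-fold) was the eighth highest of all genes and had an unadjusted p of 0.0014, but it did not pass the threshold (limma, adjusted p = 0.38). The rise of MT1E over control was known when the family was chosen, and that comparison shares JQ1 arrays with this one. The rank and p-value are therefore those of a selected gene and are given as a description. All 24 h arrays read above all 12 h arrays. MT1E was the only member whose groups did not overlap in this comparison, in which 5.76% of all genes lay higher without overlap.

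MT1X, a broadly expressed isoform, rose at both times. Its log2 values were 11.71, 11.68 and 11.26 in controls, 12.48, 12.23 and 12.28 at 12 h and 12.38, 12.31 and 12.43 at 24 h. Every JQ1 array read above every control, and the JQ1 times overlapped. MT1X was 0.78 higher at 12 h than in controls (SE 0.13, 95% interval 0.49 to 1.06, 1.71-fold, adjusted p = 0.0073) and 0.82 higher at 24 h (SE 0.13, 0.54 to 1.11, 1.77-fold, adjusted p = 0.0042). Both calls were kept when each of the 9 arrays was left out in turn. Control 3 was the lowest control, and without it the differences were 0.63 and 0.68. At 24 h MT1X differed from 12 h by 0.04, with an interval of -0.24 to 0.33 (adjusted p = 0.98).

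MT2A, the single functional gene of the MT2 group and usually a main metallothionein of human cells, rose less. Its log2 values were 10.72, 10.85 and 10.40 in controls, 11.24, 11.09 and 11.13 at 12 h and 11.20, 11.13 and 11.28 at 24 h. Again each JQ1 array lay above each control, and control 3 was the lowest. The difference from control was 0.50 at 12 h (SE 0.12, 95% interval 0.23 to 0.76, 1.41-fold, adjusted p = 0.033) and 0.54 at 24 h (SE 0.12, 0.28 to 0.81, 1.46-fold, adjusted p = 0.018). The 12 h call was kept only without control 2, control 3 or JQ1 24 h replicate 2, and leaving out any of the other 6 arrays ended it, with adjusted p-values of 0.016 to 0.11 over the 9 fits. The 24 h call was lost without JQ1 24 h replicate 1 (adjusted p = 0.060) or replicate 3 (adjusted p = 0.075) and kept without any other array. MT2A at 24 h differed from 12 h by 0.05, with an interval of -0.21 to 0.31 (adjusted p = 0.97).

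**Figure D2:**
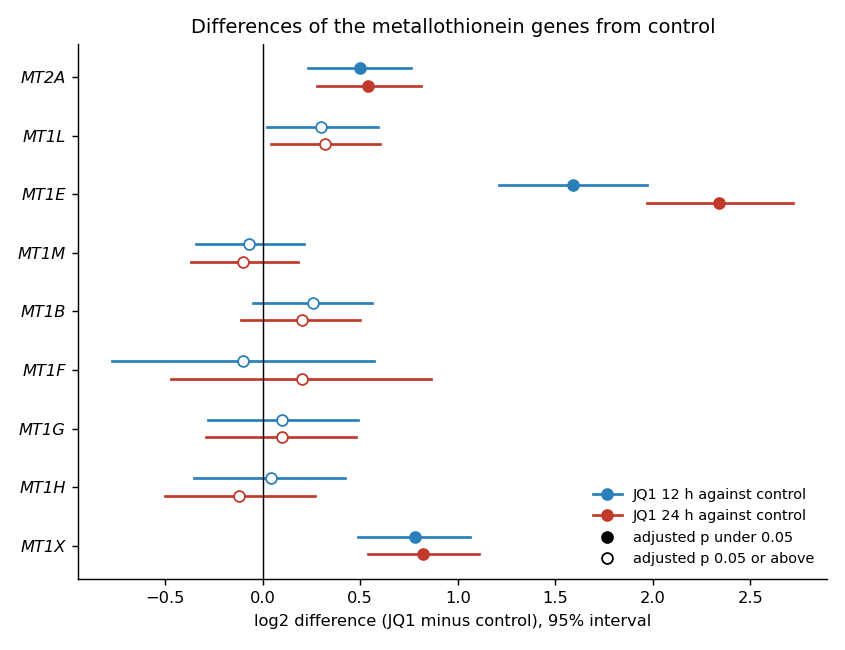
Log2 difference between JQ1 and control (x axis) for each metallothionein gene (y axis) at 12 h and 24 h, with points for the fitted difference and bars for its 95% interval. MT1E stands at 1.59 and 2.34, MT1X at 0.78 and 0.82 and MT2A at 0.50 and 0.54, and filled points are adjusted p-values under 0.05 in limma, which for MT1E is not used as a test.

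MT1E, MT1X and MT2A differed from control by unequal amounts. The difference MT1E minus MT2A was -3.64 ± 0.42 in controls, -2.55 ± 0.15 at 12 h and -1.84 ± 0.23 at 24 h (log2, SD, n = 3 each), so MT1E gained on MT2A at each time. No array of 1 group overlapped another in this measure. MT1X minus MT2A was 0.89 ± 0.09 in controls, 1.17 ± 0.05 at 12 h and 1.17 ± 0.02 at 24 h. Here the controls, at 0.82 to 0.99, lay below all JQ1 arrays, at 1.14 to 1.23, and the JQ1 times overlapped. These contrasts use genes picked by their response and were not tested; they show unequal change, not which gene has more RNA.

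Among the other 6 members, MT1F lay above the median row of the table (4.94) and was not called at either time. Its log2 values were 7.85, 7.65 and 6.78 in controls, 7.43, 7.08 and 7.46 at 12 h and 7.74, 7.11 and 8.0 at 24 h. The groups overlapped, and control 3 lay 0.97 below the mean of controls 1 and 2, the widest gap of any member. MT1F differed from control by -0.10 at 12 h (95% interval -0.77 to 0.57, adjusted p = 0.91) and by 0.20 at 24 h (-0.47 to 0.86, adjusted p = 0.77). Without control 3 the differences were -0.42 (adjusted p = 0.28) and -0.13 (adjusted p = 0.80), so at 24 h the sign turned. The intervals leave room for changes as large as those of MT2A.

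MT1L, annotated by RefSeq as a transcribed pseudogene, was a dim row with positive differences that were not called. Its log2 values were 3.53, 3.53 and 3.88 in controls, 3.88, 3.86 and 4.11 at 12 h and 3.88, 3.88 and 4.14 at 24 h. Controls 1 and 2 read lowest, both at 3.53, so without control 3 almost no spread between controls is left. Control 3 reached the level of the lower JQ1 arrays, and 3.88 recurred on arrays of every group. MT1L was 0.30 higher at 12 h than in controls (SE 0.12, 95% interval 0.02 to 0.59, adjusted p = 0.19) and 0.32 higher at 24 h (0.04 to 0.60, adjusted p = 0.15). It was called higher at both times without control 3, by 0.42 (adjusted p = 0.025) and 0.44 (adjusted p = 0.021). With array weights, which down-weight arrays that stand apart, it was also called at both times, and with a replicate block it was called at 24 h (adjusted p = 0.036) but not at 12 h (adjusted p = 0.054).

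MT1B read 4.95, 4.70 and 4.88 in controls, 5.09, 5.04 and 5.18 at 12 h and 5.35, 4.97 and 4.80 at 24 h on the log2 scale. The 12 h arrays lay above all controls, and the 24 h arrays overlapped them. Its differences from control were 0.26 at 12 h (95% interval -0.05 to 0.56, adjusted p = 0.33) and 0.20 at 24 h (-0.11 to 0.50, adjusted p = 0.44). With MT1B, 4 members lay above control without overlap at 12 h, against 11.3% of all genes, and 3 did at 24 h, against 13.3%. As MT1E was known to rise, nothing is read from these shares.

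MT1G, MT1H and MT1M, further metal-binding isoforms of the MT1 group, were all dimmer than the median row of the table (4.94) and overlapped between groups. MT1G ranged from 4.33 to 4.85 in controls, from 4.58 to 4.87 at 12 h and from 4.44 to 4.99 at 24 h. It differed from control by 0.10 at both times (adjusted p = 0.83 and 0.81). MT1H differed by 0.04 (adjusted p = 0.94) and -0.12 (adjusted p = 0.76), and its values ran from 3.33 to 4.04 over the 9 arrays. MT1M differed by -0.07 (adjusted p = 0.85) and -0.10 (adjusted p = 0.70), and its values ran from 3.57 to 3.98. No call of background was available for these rows, so a low value cannot be told apart from no transcript. Together with MT1L they make 4 members below the median row, with 5 above it. Of these 5, MT1B was close to that row, with a mean of 4.99 that lay above 29.9% of the genes tested.

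Between 24 h and 12 h of JQ1, 0 of the 9 members were called by limma, 1 (MT1E) had an unadjusted p under 0.05, and the median member differed by 0.02. Over all genes, 1 was called (0.00672%) and 6.69% had an unadjusted p under 0.05. As MT1E was a selected gene, its p-value is not read against that share. For MT1X and MT2A the intervals of this difference stayed within 0.33 either way, and for MT1F the difference was 0.29 (adjusted p = 0.93).

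**Figure D3:**
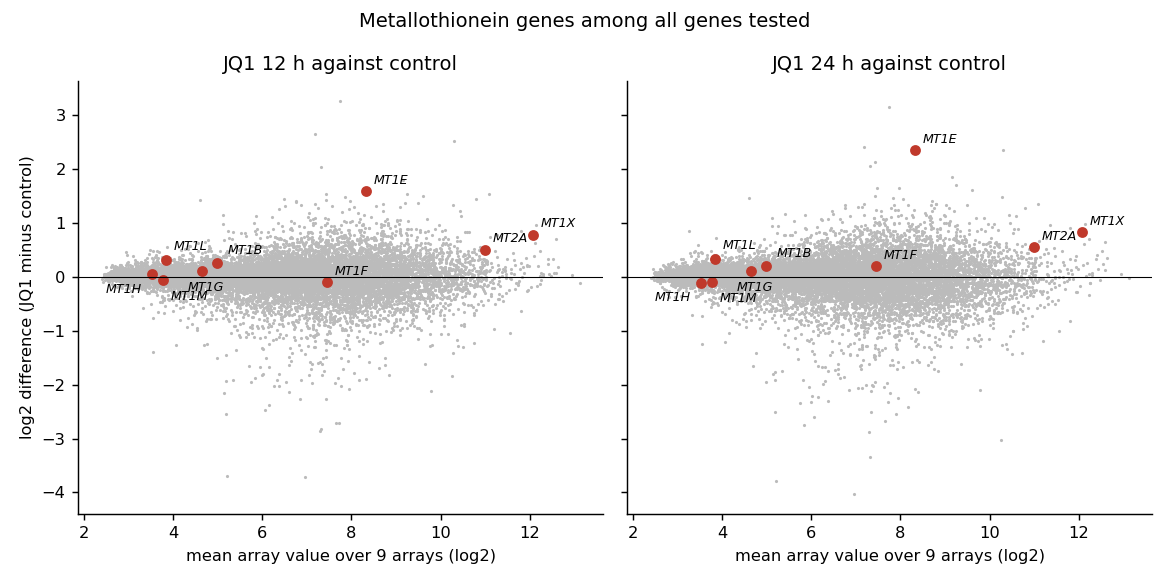
Log2 difference between JQ1 and control (y axis) against the mean log2 value over 9 arrays (x axis) for 14884 genes in grey, with the 9 metallothionein genes in red, at 12 h and 24 h. MT1E stands near the upper edge at 2.34 at 24 h, MT1X and MT2A lie at the bright end, and the dim members lie inside the grey cloud.

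Several members also read low on the same arrays of a group. Replicate 2 was the lowest of its group for 7 of 9 members at 12 h and for 6 of 9 at 24 h. MT1E, MT1F, MT1H, MT1X and MT2A were among them both times. Some of these rows were dim, and the share of all genes lowest on these arrays is not given here. The counts are therefore not read as a trait of the family. Control 3 was the lowest control for MT1F, MT1M, MT1X and MT2A. It lay above the mean of controls 1 and 2 for MT1B, MT1E, MT1G, MT1H and MT1L, by 0.05 to 0.42. The part of that array in the values that include it was not tested.

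The genes around the family were set beside it. RefSeq places 19 genes in the span of the cluster, of which 11 were measured, the 9 members with MT3 and MT4, and 8 were not analysed here. MT3, a brain-enriched metallothionein, differed from control by -0.03 at 12 h (adjusted p = 0.94) and -0.20 at 24 h (adjusted p = 0.34). MT4, known from stratified epithelium, differed by -0.05 (adjusted p = 0.89) and -0.11 (adjusted p = 0.64). Neither of them was called by limma or had an unadjusted p under 0.05, and neither of them rose with MT1E, MT1X and MT2A.

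Of the 12 nearest measured genes outside the cluster, 6 on either side, 0 were called at 12 h. At that time 1 was higher and 1 lower at an unadjusted p under 0.05. The share of all genes at the unadjusted threshold is not given here. At 24 h 1 was called higher and 1 lower, against 5.17% and 6.34% of all genes. BBS2, which encodes a subunit of the BBSome that carries cargo to cilia, neighbours the cluster on the side of MT4 and MT3. Its log2 values were 8.21, 8.23 and 7.81 in controls, 8.61, 8.52 and 8.90 at 12 h and 9.38, 8.77 and 9.41 at 24 h. All JQ1 arrays read above all controls, and the JQ1 times overlapped. BBS2 was 1.10 higher at 24 h than in controls (SE 0.19, 2.14-fold, adjusted p = 0.0073), and at 12 h the difference was 0.59 (adjusted p = 0.10), called only without JQ1 24 h replicate 2 (adjusted p = 0.046). NUP93, a scaffold protein of the nuclear pore on the other side, fell at 24 h to 9.49 ± 0.04, against 9.86 ± 0.08 in controls (log2, SD, n = 3 each, adjusted p = 0.0097). The median neighbour differed from control by -0.05 at 12 h and 0.01 at 24 h, and whether the region moves as a block was not tested. Without control 3, OGFOD1 on the BBS2 side was also called, with differences of -0.58 at 12 h and -0.60 at 24 h, both lower.

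**Figure D4:**
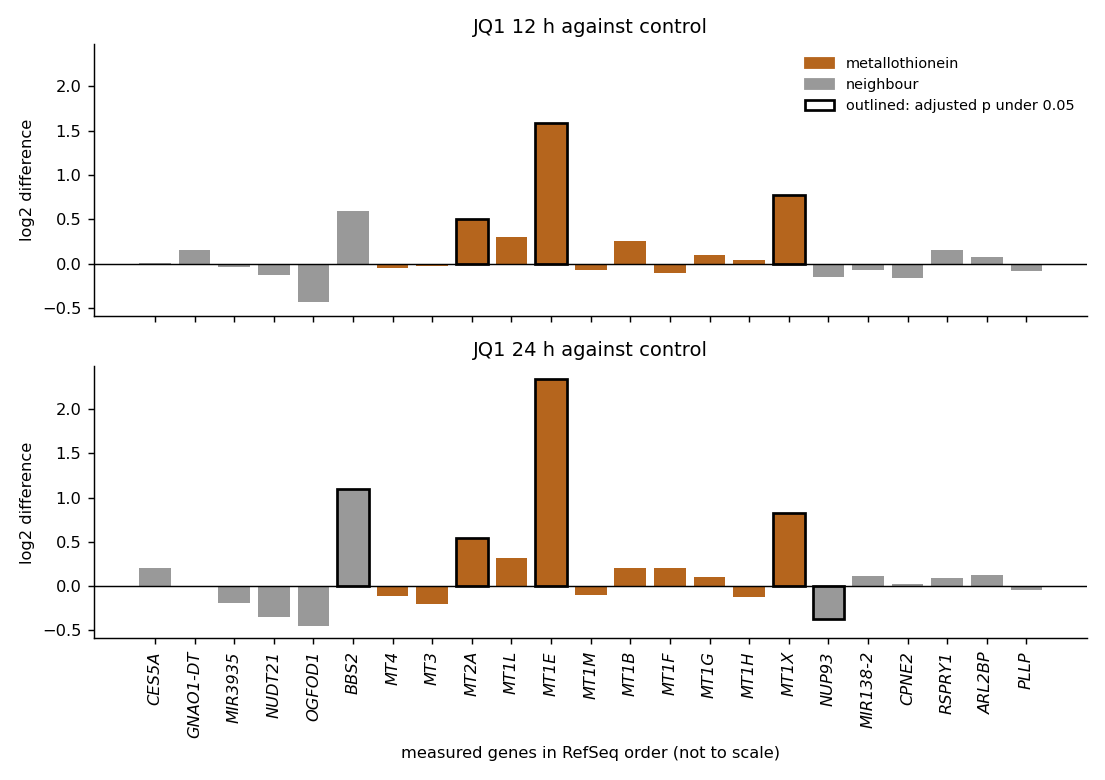
Log2 difference from control at 12 h and 24 h of JQ1 (y axis) for the metallothionein genes and the 6 nearest measured genes on either side, in RefSeq order along chromosome 16 and not to scale (x axis). Outlined bars, with an adjusted p under 0.05 in limma, are MT2A, MT1E (not used as a test) and MT1X at both times and BBS2 and NUP93 at 24 h, with uncalled metallothionein genes between them.

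Other genes of metal handling were counted from lists. MTF1, the metal-sensing activator of the family, differed from control by 0.01 at 12 h (adjusted p = 0.99) and -0.21 at 24 h (adjusted p = 0.39), and without control 3 it was called lower at 24 h, with a difference of -0.37 (adjusted p = 0.014). With MTF2 it made the only 2 of 26 genes of the zinc list that were measured, and 0 were called or had an unadjusted p under 0.05 at either time. No zinc transporter was thus covered. MTF2 was counted as listed, and no role in metal handling is claimed for it. Of the copper list 10 of 16 genes were measured. At each time 1 was called higher, against 3.54% of all genes at 12 h and 5.17% at 24 h, and none was lower. The gene called was CCS, which delivers copper to superoxide dismutase. CCS read 5.94, 5.97 and 5.88 in controls, 6.51, 6.29 and 6.68 at 12 h and 6.75, 6.37 and 6.66 at 24 h on the log2 scale. All its JQ1 arrays lay above all controls. It was 0.56 higher at 12 h than in controls (SE 0.12, adjusted p = 0.025) and 0.66 higher at 24 h (SE 0.12, adjusted p = 0.0097). The 12 h call of CCS was lost without control 1 or 2 or JQ1 12 h replicate 1 or 3 (adjusted p of 0.071 to 0.083), and the 24 h call was kept in all 9 such fits. Without control 3 the copper list stood at 3 higher at 12 h and 2 at 24 h, COX11 being added at both times and CUTC at 12 h. Calls over all genes also rose in that fit, at 12 h from 527 higher to 1424, so nothing is read from this gain. Of the iron list 5 of 14 genes were measured and 0 were called by limma. At an unadjusted p under 0.05, 1 was higher at 12 h, and 2 were higher and 1 lower at 24 h. The share of all genes at that threshold is not given here, so nothing is read from these counts.

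Genes that cadmium and oxidants are known to induce were measured for 8 of 15, of which 3 were called higher and 0 lower at both times. Over all genes, 3.54% were called higher at 12 h and 5.17% at 24 h. The list was chosen with earlier results known, and HSPA1A and HSPA1B, both among the 3, share array signal. For these reasons nothing is read from this count. TXNRD1, the cytosolic thioredoxin reductase, read 8.57, 8.51 and 8.87 in controls, 9.20, 9.85 and 9.29 at 12 h and 9.68, 9.60 and 9.48 at 24 h. Each JQ1 array was above each control. TXNRD1 was 0.80 higher at 12 h than in controls (SE 0.17, adjusted p = 0.023) and 0.94 higher at 24 h (SE 0.17, adjusted p = 0.0088). Its 12 h call was lost without control 1 (adjusted p = 0.085) or control 2 (adjusted p = 0.088). HSPA1A and HSPA1B, nearly identical genes for the inducible heat shock protein 70 that share array signal, were 1.44 and 1.53 higher at 12 h and 1.27 and 1.35 higher at 24 h (adjusted p of 0.014 to 0.024). Control 3 read 1.19 and 1.38 above the other controls for this pair, and their calls were kept in 4 or 5 of the 9 fits that left out an array, with adjusted p-values of 0.052 to 0.083 where they were lost. Leaving out control 1 or any JQ1 12 h array ended both 12 h calls, and leaving out control 1, control 2 or JQ1 24 h replicate 1 or 3 ended both 24 h calls. HSPA1B was also lost without control 2 at 12 h and without JQ1 24 h replicate 2 at 24 h. HMOX1, the heme oxygenase induced by cadmium, differed by -0.26 (adjusted p = 0.68) and -0.42 (adjusted p = 0.40), and without control 3 it was called lower at both times (adjusted p = 0.00047 and 0.00014). Without control 3 the list stood at 5 higher and 1 lower at 12 h and 4 higher and 1 lower at 24 h, with HSPH1 added at both times and SRXN1 at 12 h. That fit called 1424 of all genes higher and 1562 lower at 12 h, against 527 and 654 with all arrays. Calls over all genes also rose at 24 h. Nothing is read from these list counts.

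Of the genes known to respond to glucocorticoid, 9 of 12 were measured and 0 were called by limma at either time. At an unadjusted p under 0.05, 1 was higher and 1 lower at 12 h, and 0 were higher and 2 lower at 24 h. Nothing is read from these counts, as the share of all genes at that threshold is not given here. Without control 3, 1 was called higher and 4 lower at 12 h, and 0 higher and 3 lower at 24 h. The 1 higher was FKBP5, and ERRFI1, KLF9 and PER1 were lower at both times, with DUSP1 lower at 12 h. Over all genes, leaving out control 3 gave 1424 higher and 1562 lower at 12 h, against 527 and 654 with all arrays. The list counts without control 3 are therefore not read either. The median difference of the 9 genes was -0.09 at 12 h and -0.07 at 24 h.

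The genes with the profile nearest to MT1E were found by the root mean square distance between profiles over the 9 arrays, after each gene's mean was subtracted. The nearest was ZDHHC12-DT, a divergent transcript of ZDHHC12, at a distance of 0.174. It read 6.21, 5.92 and 6.61 in controls, 7.63, 7.70 and 7.68 at 12 h and 8.37, 8.04 and 8.69 at 24 h, with no overlap between groups. HEXIM1, the inhibitor of the elongation kinase P-TEFb and a gene used as a check of BET inhibition, was next at 0.366. PCYOX1 (0.39), TRNP1 (0.405), MIR612 (0.405), GXYLT2 (0.415), DCXR (0.432), SNX29 (0.445), DGAT1 (0.448) and PLEC (0.481) completed the nearest 10. MT1X and MT2A lay farther from MT1E, at 0.666 and 0.777. These genes were picked for likeness over the same arrays, which is a description.

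**Figure D5:**
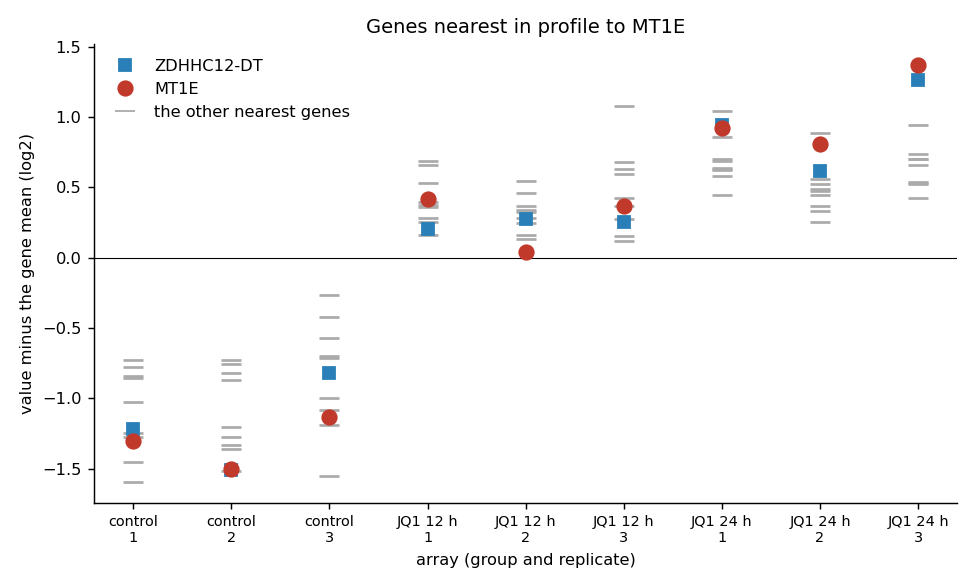
Log2 value minus the gene's own mean (y axis) on each of the 9 arrays (x axis) for MT1E, for ZDHHC12-DT and for the other genes nearest in profile. ZDHHC12-DT follows MT1E at a root mean square distance of 0.174, and the others, at 0.366 to 0.481, show a narrower range between controls and JQ1 24 h.

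The mean profile of the 9 members was flatter than that of MT1E. The genes nearest to it were GRHPR (0.046), CARD19 (0.05), RBM23 (0.05), MICALL2 (0.051), TXN2 (0.051), LINC00938 (0.052), ZNRD2-DT (0.052), KLHL12 (0.059), GIT2 (0.059) and CRTC1 (0.062). Of the members, MT2A (0.12) and MT1L (0.155) lay nearest to this mean profile and MT1E (0.79) farthest, with the other 6 at 0.188 to 0.359.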

How the data were processed

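Total RNA of 9 samples was read on Affymetrix Human Gene 2.0 ST arrays. The authors deposited 1 table of processed values, 53617 rows by 9 arrays, on a log2 scale as judged from its values (2.01 to 13.88). The tool named per the submitters' processing notes is Transcriptome Analysis Console; the version, the background correction, the normalization and the array's genome build are not given in the sources used here. Array medians were nearly equal, so changes are relative to the other genes. Of the rows, 16098 had 1 gene symbol and 37519 are unnamed here. Where a gene had several rows, its brightest on average was used, which left 14884 genes.

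Groups were compared with limma 3.58.1 in R 4.3.3, with 1 mean per group over all 9 arrays and empirical Bayes moderation without trend. P-values were adjusted by the Benjamini-Hochberg method over all genes, with calls made at an adjusted p under 0.05. The procedure was tested on simulated data. The number of arrays limits the precision.

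The members and lists were chosen with earlier results of these data known, among them the rise of MT1E, so its comparisons with control carry no test. Named are the 9 members, the genes of lists of metal handling, iron, glucocorticoid and oxidant response that the text describes, the 6 nearest measured genes on either side of the cluster, the 10 genes nearest in profile to MT1E and to the member mean, HEXIM1 and BRD2. Promoters were RefSeq sequences of GRCh38.p14, 250 bases before to 50 after the start. Alternatives were an intensity trend, a filter on dim genes, quantile normalization, subtraction of array medians, the mean of a gene's rows, all rows, only the groups compared, array weights, a replicate block and leaving out each array. Deviations from group means correlated at -0.32 to 0.22 between same-numbered replicates and at -0.27 to 0.29 between others, so numbers were not taken as pairs. The value of 0.22 was that of replicate 2 at 12 h and 24 h of JQ1. Control 3 gave 0.29 with JQ1 12 h replicate 2 and 0.28 with JQ1 24 h replicate 2. These arrays thus shared some deviation, and its source was not tested.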

Additional observations from a re-analysis of the deposited data

How the results depend on the processing

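Over the 18 alternatives, MT1X was called higher than control at both times in every one, and MT1B, MT1F, MT1G, MT1H and MT1M in none of those that kept them. MT1E against control, described without a test, spanned 1.5 to 1.71 at 12 h and 2.17 to 2.47 at 24 h. From 24 h against 12 h, 0 members were called under any alternative, and the adjusted p of MT1E (limma) ran from 0.068 with array weights to 1. MT2A was called in 8 of 18 at 12 h and in 15 of 18 at 24 h. Beside the arrays named above, its 12 h call was lost with quantile normalization (0.053), with all rows (0.072), with only the 2 groups (0.095) and with the replicate block (0.062), and its 24 h call with only the 2 groups (0.061). With array weights MT1L was called at 12 h (0.016) and 24 h (0.0082). With the replicate block MT1X was called at 12 h and MT1X, MT2A and MT1L (0.036) at 24 h, with 967, 1478 and 1 genes called in all for 12 h, 24 h and 24 h against 12 h. The filter on dim genes left out MT1G, MT1H, MT1L and MT1M.

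Counts over all genes moved more, and the cause was not tested. Against 1181 genes at 12 h, the fit of only the 2 groups called 577 and array weights 3498, and leaving out 1 array gave 543 to 2986, the highest without control 3. Against 1714 genes at 24 h, these counts were 994, 3764 and 786 to 3111, again highest without control 3. For 24 h against 12 h, 1 gene was called, with 3 over all rows, 14 with array weights and 1 to 22 when 1 array was left out, 22 without control 3. Quantile normalization and median subtraction moved the median of all genes by less than 0.1.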
